A study of Mus musculus with 3 samples.

Results

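CD4+ T cells from mice given cyclosporine (CSA) at 50 mg/kg were compared with those from mice given 5 mg/kg, to describe what the high dose adds to the low dose. All CD4+ cells of the 6 CSA pools that were not marked as TEa cells entered, 6033 of the 10371 CD4+ cells and of the 21204 CD4+ and CD8+ cells in the series. TEa cells are T cells with a transgenic receptor for a host peptide that had been transplanted in small number beside the polyclonal T cells. They were left out, 130 at 5 mg/kg and 27 at 50 mg/kg. B6D2F1 recipients received C57BL/6 (B6) bone marrow, B6 T cells and TEa cells as an allogeneic bone marrow transplant (BMT), and were treated daily from day 0 to day 6 with CSA at 5 mg/kg, CSA at 50 mg/kg or saline. Donor T cells were sorted from spleens on day 7, from 6 mice per group pooled by 2 into 3 hashtagged pools. The labels give neither age nor sex. Saline pools are quoted as a reference level and entered none of the tests described here, only 1 alternative fit over all 9 pools.

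All pools of a dose were 1 droplet capture, so that a dose and its capture cannot be told apart, and p-values measure the spread between pools of 2 mice within a capture. There were 2969 cells at 5 mg/kg (875, 933 and 1161 per pool) and 3064 at 50 mg/kg (988, 1010 and 1066). The pools held 4100125 to 6150393 unique molecular identifiers (UMIs, counted RNA molecules) at 5 mg/kg and 6545845 to 7592334 at 50 mg/kg, and the median cell held 4396 and 5979.5 UMIs. The captures shared 18 cell barcodes. T cell markers were summed (Cd3 chains, Trac, Trbc1, Trbc2, Thy1, Cd4 and Cd5). They took 0.540% to 0.567% of UMIs at 5 mg/kg and 0.593% to 0.603% at 50 mg/kg. Of these 9 genes 5 were higher and 1 lower at 50 mg/kg in the test described below. Cd4 went against the sum. It stood at 500, 447 and 457 CPM at 5 mg/kg and at 329, 316 and 315 CPM at 50 mg/kg. CPM here are counts scaled to the UMIs of a pool. Cd8a with Cd8b1 took at most 0.00957% of UMIs in any pool of either dose. No pool stood apart from its group. Over 7443 genes the distance between pools (median absolute log2 difference) was 0.0876 to 0.106 within a dose and 0.205 to 0.226 between doses.

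A T cell that recognizes antigen raises its cytosolic calcium, which activates the phosphatase calcineurin. Calcineurin dephosphorylates transcription factors of the NFAT family, which then enter the nucleus and, often together with AP-1 factors, drive cytokine genes such as Il2 and, when stimulation persists, genes of T cell exhaustion such as Pdcd1 and Tox. CSA binds the intracellular protein cyclophilin A, and the complex blocks calcineurin. It is given after BMT to limit graft-versus-host disease, in which donor T cells attack host tissue.

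Of the 10376 genes tested on counts summed per pool, 4190 (40.4%) passed edgeR's quasi-likelihood test at an adjusted p under 0.05 (Benjamini-Hochberg over all genes tested). At 50 mg/kg 2028 (19.5%) were higher and 2162 (20.8%) lower, which is 48.4% of calls higher. Scaled by library size in place of TMM, the usual trimmed-mean scaling of edgeR, 33.7% of the calls were higher. Large differences were more often falls: 195 genes (1.88%) were higher and 475 (4.58%) lower by at least 1 on the log2 scale, and 47 (0.453%) were higher and 152 (1.46%) lower by at least 2. The median log2 difference over all genes was -0.01. The pools of the doses did not overlap for 5218 genes (50.3%). In these sums a change in RNA per cell and a change in the share of cells that make it cannot be told apart, and values within clusters are given further on.

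The 2 genes with the largest rise and the 2 with the largest fall that have a RefSeq entry, among those at 50 or more CPM (counts of a gene scaled to a fixed total per pool), were Lmna, Ly6c2, Ccl1 and Ifitm1. Their first listed promoter windows, the 250 bases before the transcription start in GRCm38.p6, are shown because the treatment acts on NFAT, whose sites share the core GGAAA. Capitals mark GGAAA on either strand (TTTCC on the printed one) or the AP-1 motif TGANTCA, which none of the 4 windows holds.
Lmna (chr3:88503353-88503602, minus strand): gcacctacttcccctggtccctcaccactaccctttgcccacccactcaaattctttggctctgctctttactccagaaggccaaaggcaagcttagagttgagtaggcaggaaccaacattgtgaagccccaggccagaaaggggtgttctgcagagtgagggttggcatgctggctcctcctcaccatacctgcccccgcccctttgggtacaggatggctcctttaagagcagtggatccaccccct
Ly6c2 (chr15:75111972-75112221, minus strand): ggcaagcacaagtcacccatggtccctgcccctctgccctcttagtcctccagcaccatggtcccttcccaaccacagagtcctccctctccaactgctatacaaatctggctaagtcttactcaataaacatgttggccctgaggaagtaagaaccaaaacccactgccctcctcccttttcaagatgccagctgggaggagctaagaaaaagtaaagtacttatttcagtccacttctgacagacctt
Ccl1 (chr11:82179813-82180062, minus strand): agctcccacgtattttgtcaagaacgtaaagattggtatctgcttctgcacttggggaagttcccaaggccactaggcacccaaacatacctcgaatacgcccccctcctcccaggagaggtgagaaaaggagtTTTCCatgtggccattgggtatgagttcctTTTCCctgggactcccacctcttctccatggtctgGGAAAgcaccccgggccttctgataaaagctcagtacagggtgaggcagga
Ifitm1 (chr7:140967826-140968075, plus strand): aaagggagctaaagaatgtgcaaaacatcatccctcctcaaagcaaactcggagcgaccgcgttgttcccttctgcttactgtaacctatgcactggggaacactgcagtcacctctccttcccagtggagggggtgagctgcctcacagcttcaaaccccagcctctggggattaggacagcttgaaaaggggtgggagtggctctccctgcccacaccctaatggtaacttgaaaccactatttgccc
The Ccl1 window holds the GGAAA core 3 times, and the other windows hold neither motif. Of the 24 genes with the largest changes (12 in each direction, described next), 19 have an entry, and the core stands in 12 of these windows, 5 of 10 that rose and 7 of 9 that fell. TGANTCA stands in 1 of 10 and 1 of 9. Over all 27025 first windows of the same length, 55.6% hold GGAAA and 6.87% hold TGANTCA. A match describes the letters of the window and not the binding of a factor.

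Among the genes that rose, Lmna, which encodes the nuclear envelope proteins lamin A and C, rose the most. Lmna stood at 5.18, 3.72 and 3.53 CPM in the 5 mg/kg pools and at 156, 187 and 153 CPM in the 50 mg/kg pools, against 1.73 to 2.38 CPM with saline. The pools were far from overlapping, and the gene was 40.6-fold higher at 50 mg/kg (log2 difference 5.34 ± 0.13 (SE), adjusted p = 1.38e-14, n = 3 pools a dose here and below). Ly6c2, which encodes the surface protein Ly6C carried by memory and naive-like T cells, stood at 168, 210 and 190 CPM at 5 mg/kg and at 2127, 1854 and 1559 CPM at 50 mg/kg (9.73-fold, log2 3.28 ± 0.09, adjusted p = 3.76e-14). The 5 mg/kg level of Ly6c2 lay near that of saline (133 to 162 CPM). Reads of Ly6c2 can be shared with its near-identical neighbor Ly6c1, which rose from 15.4 to 30.8 CPM. Klrg1, an inhibitory lectin-like receptor of differentiated effector cells, stood at 19.1, 17.4 and 14.7 CPM at 5 mg/kg and at 152, 149 and 121 CPM at 50 mg/kg (8.35-fold, log2 3.06 ± 0.11, adjusted p = 6.68e-13). As for Lmna, each 50 mg/kg pool was several times above each 5 mg/kg pool.

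Ctla2a, a cathepsin inhibitor, rose from 36.1, 37.9 and 27.6 CPM to 194, 187 and 168 CPM (5.48-fold, adjusted p = 1.02e-12), with the caution that its paralog Ctla2b is near-identical. Dapl1, a gene of naive and early memory T cells, rose from 24.7, 15.9 and 24.4 CPM to 84.7, 104 and 123 CPM (4.79-fold, adjusted p = 9.98e-10). Ccl5, the chemokine RANTES of effector and memory T cells, stood at 571, 914 and 821 CPM at 5 mg/kg and at 3094, 2797 and 2615 CPM at 50 mg/kg (3.68-fold, log2 1.88 ± 0.11, adjusted p = 3.26e-10). Its saline pools (731 to 789 CPM) lay within the range of the 5 mg/kg pools. The other 6 of the 12 largest rises were 2.39-fold to 4.44-fold. They were Chchd10, a mitochondrial intermembrane protein, Anxa1 (annexin A1, a phospholipid-binding protein), S100a4, a calcium-binding protein, Zbtb32, a zinc finger repressor, Capg, an actin-capping protein, and Ms4a4c, a membrane protein of the MS4A family. Anxa1 went from 83.7, 69.7 and 78.2 CPM to 319, 337 and 318 CPM, and S100a4 from 265, 248 and 259 CPM to 740, 706 and 713 CPM.

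**Figure D1:**
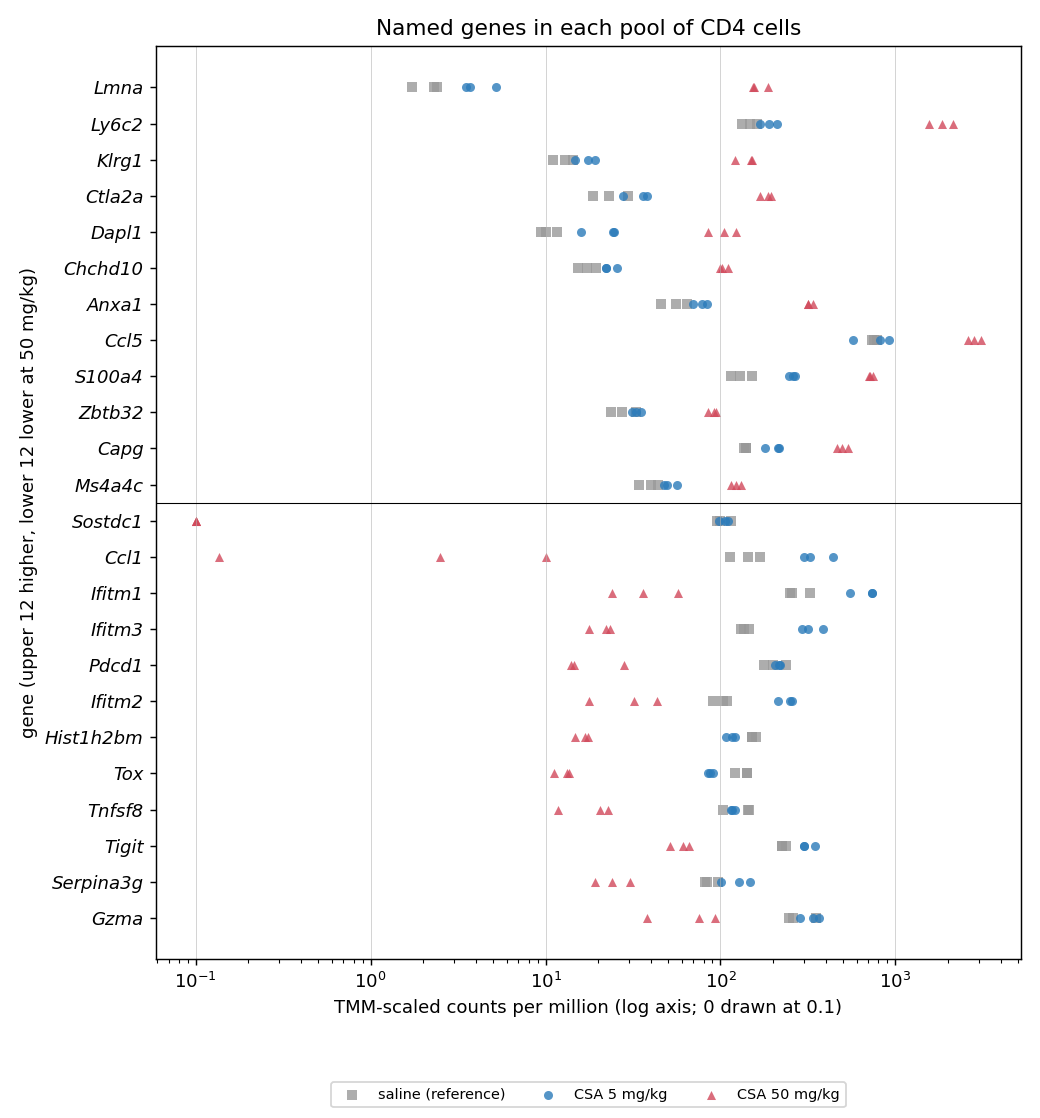
TMM-scaled CPM on a log axis (0 drawn at 0.1) of the 12 largest rises and 12 largest falls, 1 point per pool, with the saline pools as a reference. In every gene all 3 pools at 50 mg/kg (triangles) lie on one side of the 3 pools at 5 mg/kg (circles), as the choice of these genes required. Sostdc1 was at 0 in all 3 pools at 50 mg/kg.

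The largest fall was that of Sostdc1, which encodes a secreted antagonist of BMP and Wnt signals. Sostdc1 stood at 107, 98.5 and 111 CPM at 5 mg/kg, near the saline pools (95.1 to 115 CPM), and no UMI was counted in any 50 mg/kg pool. With the 3 UMIs over the group that a count of 0 allows as a floor, it was at least 715-fold lower (1619 UMIs at 5 mg/kg, adjusted p = 1.38e-14). Ccl1, the ligand of the receptor CCR8, fell from 327, 301 and 437 CPM to 2.51, 10.0 and 0.136 CPM (log2 -6.44 ± 0.30, adjusted p = 1.87e-11), and at 5 mg/kg it was above the saline pools (113 to 169 CPM). The 50 mg/kg pools of Ccl1 were low but uneven.

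Ifitm1, Ifitm2 and Ifitm3, interferon-induced transmembrane proteins that restrict viral entry, fell. Ifitm1 stood at 735, 551 and 735 CPM at 5 mg/kg and at 23.8, 36.1 and 57.2 CPM at 50 mg/kg (17.0-fold lower, log2 -4.09 ± 0.17, adjusted p = 5.25e-12). Ifitm3 went from 316, 291 and 385 CPM to 22.1, 17.8 and 23.4 CPM (15.7-fold lower) and Ifitm2 from 249, 214 and 255 CPM to 17.7, 32.0 and 43.6 CPM (7.60-fold lower). At 5 mg/kg all 3 lay above every saline pool, and at 50 mg/kg below every one. The 3 genes are similar in sequence, so reads may be split among them.

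Pdcd1, which encodes the inhibitory receptor PD-1, stood at 216, 205 and 220 CPM at 5 mg/kg, within the saline range of 178 to 238 CPM, and at 14.0, 14.5 and 28.1 CPM at 50 mg/kg (11.1-fold lower, log2 -3.48 ± 0.14, adjusted p = 4.04e-12). Tox, the transcription factor of exhausted T cells, stood at 84.8, 87.5 and 90.7 CPM and at 11.1, 13.2 and 13.6 CPM (6.91-fold lower, log2 -2.79 ± 0.08, adjusted p = 7.03e-14), against 121 to 141 CPM with saline. Tigit, another inhibitory receptor, fell from 347, 302 and 300 CPM to 65.7, 51.6 and 60.9 CPM (5.32-fold lower, adjusted p = 1.46e-13). In these 3 genes too the highest pool at 50 mg/kg stood far below the lowest at 5 mg/kg. The remaining falls among the 12 largest were Hist1h2bm, a replication-dependent histone whose mRNA mostly lacks a poly(A) tail (7.02-fold), Tnfsf8, the CD30 ligand (6.39-fold), Serpina3g, a protease inhibitor with close paralogs (5.19-fold), and Gzma, the protease granzyme A. Gzma went from 338, 286 and 364 CPM to 75.6, 37.9 and 93.4 CPM (4.76-fold lower, adjusted p = 1.82e-08).

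The fall of Pdcd1 and Tigit was shared by most inhibitory receptors. Of 14 tested, 12 were lower and 1 higher, with a median log2 difference of -1.58 (all genes: 20.8% lower, 19.5% higher, median -0.01). The same shares over all genes stand beside every list counted over all cells below. Lilr4b, a leukocyte immunoglobulin-like receptor, fell from 80.7 to 6.04 CPM (log2 -3.75 ± 0.10) and its near-identical neighbor Lilrb4a from 12.4 to 0.585 CPM. Lag3, which binds MHC class II, stood at 143, 127 and 138 CPM at 5 mg/kg and at 25.9, 27.4 and 44.3 CPM at 50 mg/kg (log2 -2.05 ± 0.13, adjusted p = 8.20e-10). Cd160 and Cd200 fell by 2.19 and 2.08 on the log2 scale, Btla by 1.12 and Ctla4 by 0.66. The receptor that rose was Havcr2 (TIM-3), from 40.5, 35.2 and 46.3 CPM to 47.8, 57.1 and 48.1 CPM (log2 0.31 ± 0.10, adjusted p = 0.0155). Cd96 did not pass (91.0 and 87.9 CPM, adjusted p = 0.517).

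Of 11 transcription factors of exhaustion and terminal differentiation, 8 fell and 3 rose (median log2 -0.51). Beside Tox, its relative Tox2 fell from 37.9, 31.2 and 37.3 CPM to 0.314, 0.457 and 1.22 CPM (log2 -5.65 ± 0.23, adjusted p = 4.48e-12), and Ikzf2 (Helios) fell by 2.33 on the log2 scale. Eomes, a T-box factor of memory and cytotoxic cells, rose from 3.53, 6.21 and 5.13 CPM to 31.7, 30.7 and 28.5 CPM (log2 2.59 ± 0.15, adjusted p = 3.37e-10). Id2, an inhibitor of E proteins, rose from 553 to 867 CPM. The direction therefore differed among members of the list.

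Most costimulatory molecules fell as well, with 15 of 19 tested lower and 3 higher (median log2 -0.95). Icos, the costimulator of follicular helper cells, fell from 361, 372 and 362 CPM to 160, 139 and 183 CPM (log2 -1.18 ± 0.07, adjusted p = 3.63e-10). Cd70 and Cd83 fell by 2.64 and 2.46, and Cd226, which shares ligands with Tigit, by 0.95. Cd28, the main costimulatory receptor, was higher by 0.22 (231 to 268 CPM) and the adhesion receptor Cd44 by 0.29. All 3 genes of the list that rose did so by less than 0.3 on the log2 scale.

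Follicular helper genes fell nearly as a group, with 16 of 18 lower and 1 higher (median log2 -1.37). Cxcr5, the receptor that leads these cells to B cell follicles, stood at 33.2, 30.8 and 29.8 CPM at 5 mg/kg and at 1.73, 1.37 and 2.58 CPM at 50 mg/kg (log2 -4.01 ± 0.17, adjusted p = 9.05e-12). Izumo1r (folate receptor 4) fell from 87.9 to 11.5 CPM, Bcl6, the defining factor of these cells, from 12.9 to 3.47 CPM, and the ATP receptor P2rx7 from 36.1 to 3.25 CPM. Il21, their characteristic cytokine, fell from 32.3, 32.7 and 33.0 CPM to 1.73, 1.22 and 3.80 CPM (log2 -3.81 ± 0.20, adjusted p = 1.30e-10). The list's riser was Lef1, a factor it shares with naive cells. The list also shares members with the inhibitory, costimulatory and memory lists.

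Of 14 cytokine genes 8 were lower and 1, Il16, was higher (median log2 -0.88). Il2, the T cell growth factor and textbook target of NFAT, stood at 10.8, 9.31 and 23.4 CPM at 5 mg/kg and at 1.41, 1.37 and 6.25 CPM at 50 mg/kg (log2 -2.26 ± 0.42, adjusted p = 3.21e-04). Csf2 (GM-CSF) fell from 60.7 to 10.1 CPM and Il4 from 6.20 to 1.09 CPM. Tnf and Ifng, the inflammatory cytokines of T helper 1 cells, moved less, by -0.78 and -0.48 on the log2 scale. Ifng went from 68.3, 57.3 and 60.6 CPM to 40.9, 45.2 and 46.2 CPM (adjusted p = 8.59e-05), without overlap.

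Chemokine genes did not move together, with 1 of 6 higher (Ccl5) and 2 lower (all genes: 19.5% and 20.8%). Xcl1, the ligand of the dendritic cell receptor XCR1, fell from 29.0, 27.5 and 50.0 CPM to 2.20, 1.37 and 1.09 CPM (log2 -4.56 ± 0.29, adjusted p = 1.56e-09). Ccl4 stood at 245, 238 and 354 CPM at 5 mg/kg and at 136, 200 and 497 CPM at 50 mg/kg (log2 -0.01 ± 0.29, adjusted p = 0.990), and its neighbor Ccl3 had the same log2 difference (± 0.26). At 50 mg/kg both were highest in pool 3 and the pools overlapped those at 5 mg/kg.

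Receptors for cytokines were lower in 13 of 21 and higher in 3 (median log2 -0.46). Il1rl1, the IL-33 receptor, fell from 15.1 to 0.250 CPM (log2 -5.79 ± 0.40), Il7r, the IL-7 receptor of memory cells, from 266 to 130 CPM and Il2ra (CD25) from 66.2 to 40.4 CPM. The Jak, Stat and Socs list had 12 of 17 lower, and the others did not pass (median log2 -0.46), with Socs3, a feedback inhibitor, at 54.5 and 21.9 CPM. Of 40 interferon-stimulated genes 20 were lower and 3 higher (median log2 -0.29), with Ifih1, a sensor of viral RNA, falling from 66.3 to 21.4 CPM. The fall of this list was uneven between clusters, as given further on.

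Receptors of homing were split, with 10 of 23 higher and 10 lower (median log2 0.14). Ccr2, which follows inflammatory chemokines, rose from 102 to 237 CPM (log2 1.20 ± 0.05, adjusted p = 1.30e-11). Ccr7, which guides T cells to lymph nodes, did not pass (59.1 and 68.2 CPM, adjusted p = 0.280). Ccr8, the receptor of Ccl1, fell from 12.1 to 1.30 CPM and the integrin chain Itga1 by 2.63 on the log2 scale.

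Genes of memory and quiescence were higher in 13 of 26 and lower in 8 (median log2 0.25). Klf2, which maintains quiescence and trafficking genes, rose from 628 to 934 CPM (log2 0.57 ± 0.04), Lef1 from 125 to 201 CPM (0.68 ± 0.06), Foxp1 from 76.3 to 116 CPM and Bach2, a repressor of effector genes, from 9.15 to 16.9 CPM. Tcf7, which encodes the stem-like memory factor TCF-1, went the other way, from 174, 155 and 152 CPM to 49.9, 47.3 and 64.7 CPM (log2 -1.56 ± 0.09, adjusted p = 3.49e-10). The survival gene Bcl2 fell from 106 to 55.6 CPM. Thus Lef1 and Tcf7, related factors of naive cells, moved in opposite directions.

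The list of annexins, S100 proteins and galectins was the most uniform of those that rose, with 17 of 20 higher and 1 lower (median log2 0.65). It includes Anxa1 and S100a4, and also the abundant S100a10, at 1996, 1958 and 2023 CPM and then at 3884, 3986 and 3827 CPM (log2 0.97 ± 0.03, adjusted p = 2.93e-13). S100a6, Lgals1 (galectin-1) and Anxa2 rose by 0.77, 0.75 and 0.85 on the log2 scale, and Lgals3 (galectin-3) fell by 0.22. Of 9 killer cell lectin-like receptors tested 5 rose and 1 fell (median log2 0.75), among them Klrk1 (NKG2D), from 21.2 to 77.1 CPM. Members of this family are close in sequence.

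Cytotoxic genes were lower in 7 of 13 and higher in 3 (median log2 -0.43). Over all genes 20.8% were lower and 19.5% higher. While Gzma fell, Gzmb (granzyme B) rose from 567, 628 and 653 CPM to 1281, 1041 and 1011 CPM (log2 0.85 ± 0.07, adjusted p = 4.27e-08), and the low Gzmm (granzyme M) from 6.74 to 24.4 CPM. Prf1 (perforin), the pore-forming partner of granzymes, fell from 25.3 to 14.9 CPM. Of 13 T helper 1 genes 4 were higher and 7 lower, and Tbx21, which encodes the defining factor T-bet, did not pass (101 and 112 CPM, adjusted p = 0.135). Of 11 T helper 17 genes 7 passed the filter on low counts, and these were lower (median log2 -2.44). A gene can pass this filter through the pools of 1 dose alone, so this count is a description. Among the 7 Ahr, a ligand-activated factor, fell from 22.4 to 2.87 CPM. Of 11 regulatory T cell genes 6 were lower and 2 higher, and the defining Foxp3 was one of those higher, from 4.95, 5.17 and 6.57 CPM to 7.21, 10.5 and 10.1 CPM (log2 0.71 ± 0.20, adjusted p = 0.00987).

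Genes of the targeted pathway moved by small amounts. Of 15 genes of calcineurin, NFAT and the immunophilins 4 were higher and 3 lower (median log2 -0.01, that of all genes). Of all genes 19.5% were higher and 20.8% lower. With library size scaling the balance of the list turned to 2 higher and 3 lower. Ppp3ca, a catalytic subunit of calcineurin, rose from 52.3, 55.4 and 51.3 CPM to 88.3, 86.4 and 79.2 CPM (log2 0.68 ± 0.07, adjusted p = 4.28e-07). Ppia, which encodes cyclophilin A, the protein that binds CSA, rose from 3807 to 4671 CPM (0.29 ± 0.03). Nfatc1, itself induced by NFAT, fell from 194 to 132 CPM (-0.56 ± 0.05), and Rcan1, an inhibitor of calcineurin whose transcription follows NFAT activity, from 5.57 to 2.96 CPM (-0.89 ± 0.26, adjusted p = 0.0102). Around calcium entry, Nrgn (neurogranin), which binds calmodulin, fell from 81.3, 76.7 and 69.4 CPM to 3.92, 1.07 and 4.89 CPM (log2 -4.49 ± 0.19, adjusted p = 5.09e-12). Orai1, the calcium channel of T cells, fell from 134 to 84.3 CPM.

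Genes induced by the T cell receptor moved both ways, with 6 of 20 higher and 10 lower (median log2 -0.38). Over all genes 19.5% were higher and 20.8% lower. Among the NR4A factors, which follow receptor signals, Nr4a2 fell from 13.6 to 3.94 CPM and Nr4a3 from 9.72 to 3.72 CPM, but Nr4a1 rose from 42.7, 52.5 and 50.2 CPM to 87.4, 85.2 and 96.9 CPM (log2 0.88 ± 0.08, adjusted p = 9.34e-08). Egr2, an NFAT-dependent factor of anergy, fell by 1.50, Batf, an AP-1 family partner, by 1.26 and Nfkbia, the NF-κB inhibitor, by 1.13 on the log2 scale. The phosphatases Dusp4 and Dusp5, which act on MAP kinases, rose by 1.33 and 1.00. Irf4 and Myc did not pass (log2 0.20 and 0.18). Of 22 proximal signaling genes 8 were higher and 7 lower, with Cd6 and Cd5, negative regulators of the receptor, up by 1.03 and 0.70 and the kinase Fyn down, at 234 and 147 CPM. Summed dissociation stress genes, several of which are also induced by the receptor, took 0.436% to 0.485% of UMIs at 5 mg/kg and 0.435% to 0.463% at 50 mg/kg.

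Housekeeping programs changed by small amounts. Proteasome subunits were higher in 23 of 39 and lower in 2 (median log2 0.17), subunits of respiratory complex I higher in 18 of 37 and lower in 2 (0.12), and sterol synthesis genes higher in 10 of 25 and lower in 1 (0.32). These medians kept their sign with library size scaling. Counts of proteasome and complex I subunits within clusters are given further on, and most of their rises there were in 1 cluster. Of 23 glycolysis genes 5 were higher and 8 lower (median -0.26). Over all genes 19.5% were higher and 20.8% lower, so the share of glycolysis genes higher was near that of all genes. Gapdh went up from 410 to 678 CPM. Hif1a, the hypoxia factor that drives glycolytic genes, went down from 246 to 110 CPM. S phase genes were higher in 14 of 48 and lower in 6, but 8 were higher and 13 lower with library size scaling. G2 and M phase genes were higher in 17 of 54 and lower in 5, and 10 were higher and 12 lower when each cell was thinned to 2000 UMIs. Mki67, the proliferation marker Ki-67, fell from 367 to 247 CPM while Ccnb2 (cyclin B2) rose from 120 to 188 CPM. The summed ribosomal protein genes took 22.99% to 23.4% of UMIs at 5 mg/kg and 20.4% to 21.6% at 50 mg/kg.

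**Figure D2:**
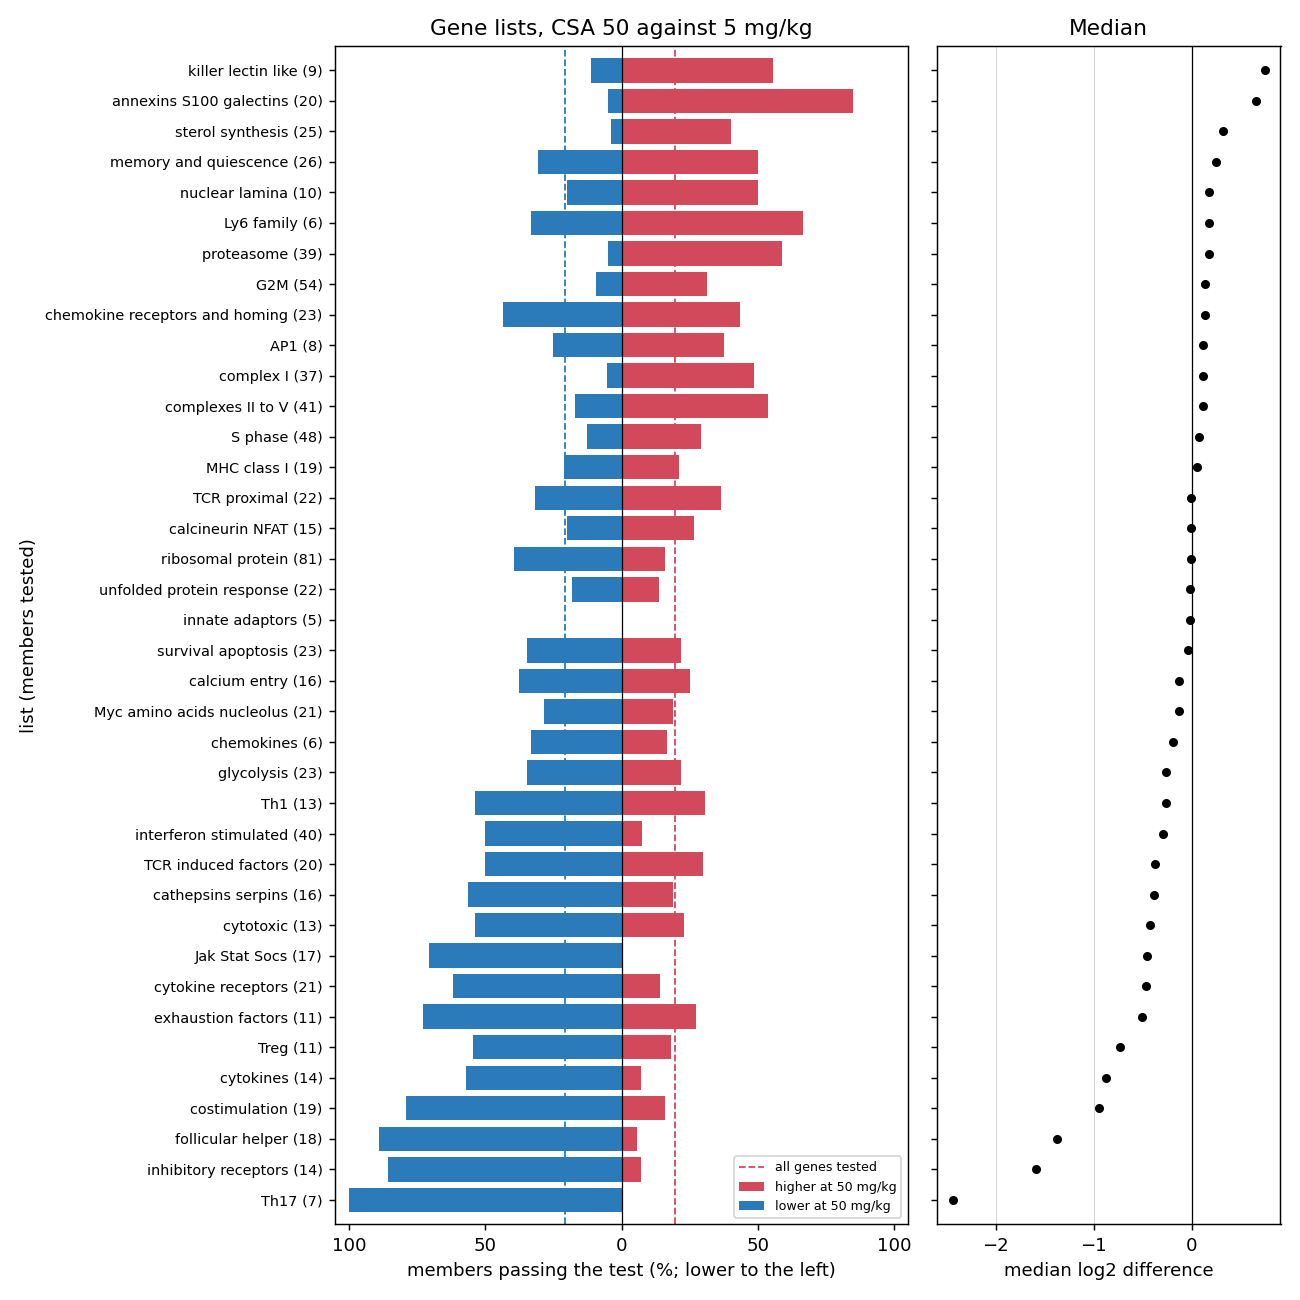
Share of each list's tested members (number in brackets) that passed the test, higher at 50 mg/kg to the right and lower to the left, with dashed lines at the share over all genes tested (19.5% and 20.8%), and each list's median log2 difference in the right panel. Inhibitory receptors, follicular helper, T helper 17 and costimulatory genes lie lowest, and killer lectin-like receptors and annexins, S100 proteins and galectins highest.

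The authors' 13 clusters of CD4+ cells (C0 to C12) changed in share. C5, led by the mitotic genes Cenpa, Ccnb2 and Cdc20, held 5.14%, 6.43% and 6.98% of cells at 5 mg/kg and 14.6%, 14.2% and 14.2% at 50 mg/kg (log2 1.20, adjusted p = 3.04e-04, edgeR's quasi-likelihood test on cell numbers, adjusted over clusters). C3, led by the S phase genes Rrm2 and Pclaf, went from 10.7% to 17.7%, whereas C6, led by Mki67 and Aspm, fell from 7.77%, 6.00% and 4.91% to 1.32%, 0.693% and 1.31% (log2 -2.46, adjusted p = 2.64e-04). The 3 cycling clusters together held 23.1% ± 0.400 (SD, n = 3) of cells at 5 mg/kg and 33.1% ± 1.99 at 50 mg/kg. Cells of these 3 clusters were thus a larger share in each pool at 50 mg/kg. Over the cells outside them, G2 and M phase genes were lower at 50 mg/kg (median log2 difference -1.31). Whether cycling cells of all clusters were a larger share was not tested.

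C1, led by Ifitm1, Gpr15, Cd7 and Il7r, rose from 17.4%, 16.9% and 17.1% to 25.6%, 27.0% and 24.1% (log2 0.58, adjusted p = 0.00344). The leading genes of a cluster were taken over both doses together. Within C1 Ifitm1 went from 2369 CPM at 5 mg/kg to 134 CPM at 50 mg/kg, Il7r from 570 to 261 CPM and Cd7 from 259 to 217 CPM. C2, led by Sostdc1 (no UMI at 50 mg/kg), Izumo1r, Cxcr5 and Tcf7, fell from 20.5% ± 1.88 to 9.98% ± 2.73 (log2 -1.03, adjusted p = 0.00298). C11, a Treg-like cluster led by Foxp3, rose from 0.828% to 1.92% (log2 1.18, adjusted p = 0.00455). It held only 25 cells at 5 mg/kg and 59 at 50 mg/kg, with 5 in the smallest pool. C4, led by Aff3, Il6st, Il6ra and Cxcr5, fell from 7.66%, 5.57% and 6.03% to 1.82%, 1.09% and 1.50% (log2 -2.11, adjusted p = 2.64e-04). Its cells were shallow, 83.1% of them under 2000 UMIs at 5 mg/kg, and among cells of at least 2000 UMIs its share did not pass (1.29% and 0.777%, adjusted p = 0.241). C0, led by Ccl5, Csf1 and Il12rb2, did not pass (14.5% ± 1.44 and 12.6% ± 2.86, adjusted p = 0.430), and its median cell held 2328 UMIs at 5 mg/kg and 5454.5 at 50 mg/kg. C7 to C10 and C12 did not pass either. With 3 pools a side the exact two-sided permutation p cannot fall below 0.1, and it was 0.1 for each cluster whose share passed. The clusters had been made by the authors from the same counts.

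**Figure D3:**
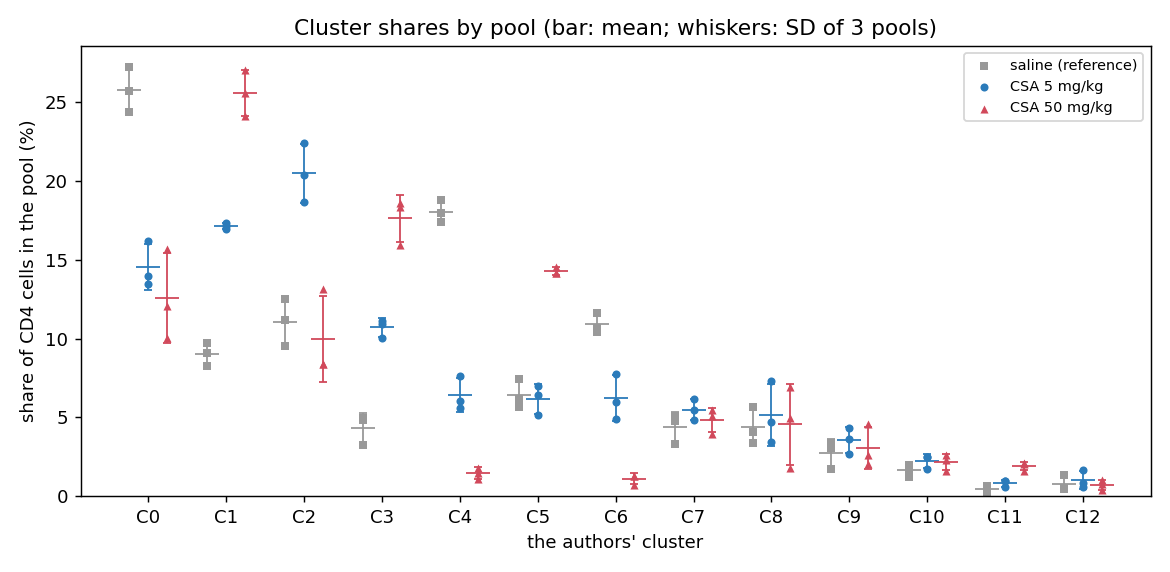
Share of each of the authors' clusters in the CD4+ cells of each pool (points), with the mean (bar) and SD of 3 pools (whiskers) and saline as a reference. C1, C3, C5 and C11 lie higher and C2, C4 and C6 lower at 50 mg/kg than at 5 mg/kg in every pool.

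The 24 genes were also compared within clusters. Clusters with at least 10 cells in each of the 6 pools were tested (C0 to C5 and C7 to C10), and 27.0% of genes were called in C0, 15.3% in C1, 15.8% in C2, 11.3% in C3, 22.8% in C4, 7.84% in C5, 8.27% in C7, 10.4% in C8, 6.17% in C9 and 15.5% in C10. In the same order, 12.2%, 6.77%, 8.08%, 5.05%, 10.9%, 3.29%, 3.82%, 4.1%, 2.04% and 6.66% of genes were higher. The shares lower were 14.8%, 8.48%, 7.73%, 6.29%, 12%, 4.55%, 4.45%, 6.31%, 4.14% and 8.84%. With library size scaling 396 genes were higher and 1390 lower in C0 (809 and 980 with TMM; median log2 difference of all genes there -0.16), and 61 higher and 58 lower in C9 (33 and 67 with TMM). Lmna was higher in all 8 clusters that tested it (log2 4.60 to 5.83), Ccl5 and Capg in all 10, and Klrg1 in all 6. Ly6c2 was higher in 9 of 10, and in the remaining cluster, the naive-like C9 (led by Igfbp4, Ly6c1 and Ccr7), its log2 difference of 0.67 did not pass. Pdcd1 was lower in all 9 clusters that tested it (-4.82 to -2.29), Tox in all 8, Tigit in all 9 and Ifitm1 in all 8. For each of the 24 genes, every call within a cluster had the direction found over all cells, but a gene nearly absent at 1 dose, such as Lmna, Ccl1 or Sostdc1, passed the filter on low counts in a cluster only through the other dose, and its number of clusters is a description. C8 is led by macrophage genes (C1qa, C1qb, C1qc, Vcam1), and held 5.15% ± 1.96 of cells at 5 mg/kg and 4.57% ± 2.58 at 50 mg/kg. Without its cells 4115 genes were called over the remaining cells, an alternative chosen after seeing the data.

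Gene lists were counted within clusters in the same way. A member nearly absent at 1 dose passed the filter in a cluster only through the other dose, so these counts too are a description. Inhibitory receptors were lower in 9 of 12 tested in C0, 7 of 11 in C1, 7 of 11 in C3 and 7 of 11 in the mitotic C5 (genes lower in these clusters: 14.8%, 8.48%, 6.29% and 4.55%). Follicular helper genes were lower in 14 of 17 within C2, the cluster led by Cxcr5 and Izumo1r, where 7.73% of genes were lower. C2 had been made from the same counts, and Cxcr5 and Izumo1r are members of this list, so the count is no independent support. Annexins, S100 proteins and galectins were higher in 15 of 20 in C0, 14 of 20 in C1 and 14 of 20 in C3 (genes higher: 12.2%, 6.77% and 5.05%), but in the naive-like C9 1 of 14 was higher and 5 were lower. Whether C9 differs from the other clusters was not tested. Of 36 interferon-stimulated genes tested in C2 18 were lower and 0 higher (median log2 -0.59, genes lower: 7.73%). In C0 7 of 33 were lower and 4 higher, and in C3 5 of 32 lower and 1 higher. In C1 4 of 31 were lower and 4 higher (median log2 0.11). G2 and M phase genes, which were on balance higher over all cells, were lower in 29 of 33 within C0 and 27 of 37 within C1, and in C3 2 of 54 were higher and 1 lower. Over all cells outside the cycling clusters C3, C5 and C6, 46 of the 54 were lower and 1 higher. Complex I subunits were higher in 14 of 37 and lower in 0 within C0 (genes higher: 12.2%). The numbers higher were 2, 2 and 1 in C1, C2 and C3, and the numbers lower 5, 6 and 4. Proteasome subunits were higher in 11 of 39 and lower in 0 within C0. In C1, C2 and C3 0 were higher, and 2, 3 and 3 were lower. In each remaining cluster at most 2 of either list were higher and at most 2 lower. The part of depth in the C0 values was not tested.

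**Figure D4:**
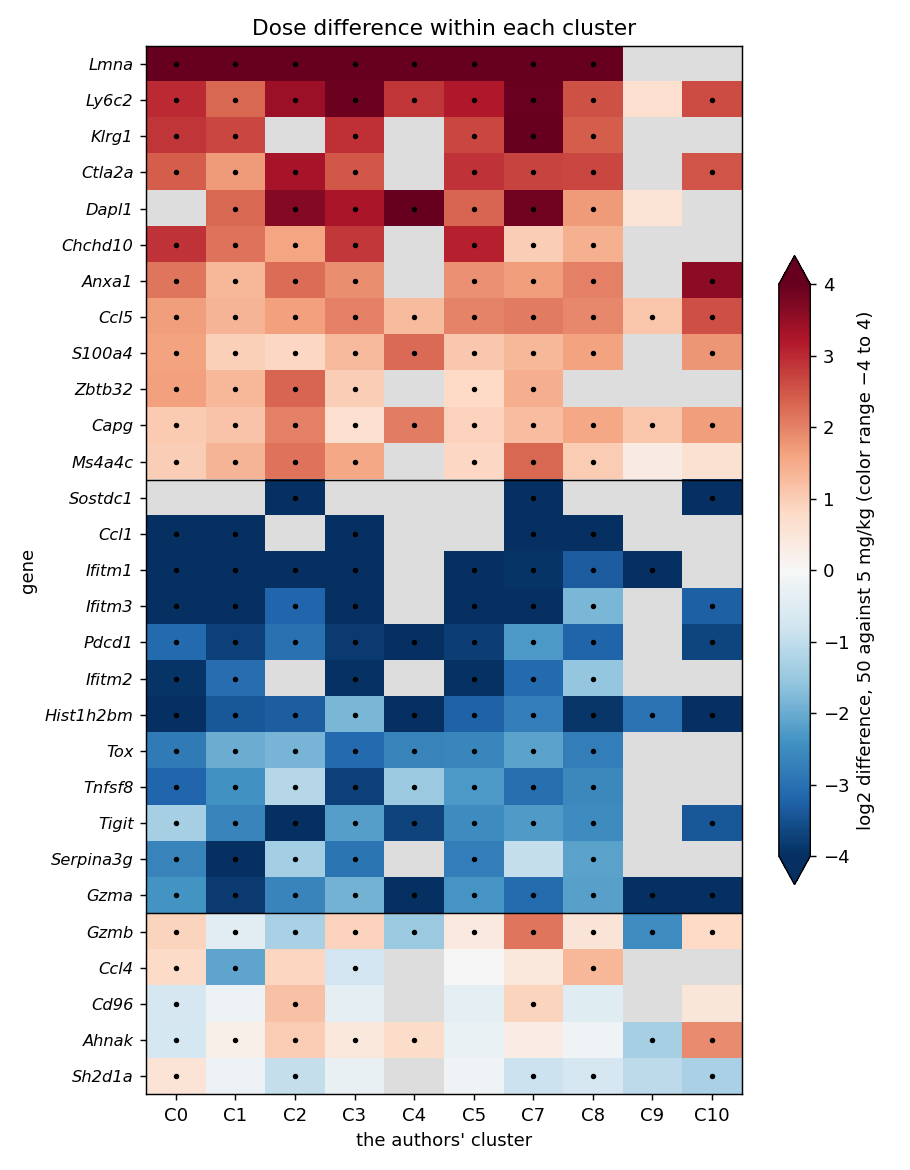
Log2 difference between 50 and 5 mg/kg within each of the authors' clusters (columns) for the 12 largest rises, the 12 largest falls and 5 genes whose change differed between clusters; a dot marks an adjusted p under 0.05 and gray a gene too low to test. The upper and middle blocks keep 1 color in every cluster, and Gzmb, Ccl4, Cd96, Ahnak and Sh2d1a change color between clusters.

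The number of cells with a transcript moved with the level. Since the cells at 50 mg/kg were deeper, each cell was thinned to 2000 UMIs and cells under that depth were left out, 147, 153 and 152 in the 5 mg/kg pools and 24, 25 and 31 in the 50 mg/kg pools. Lmna was then found in 0.824%, 1.03% and 0.892% of cells at 5 mg/kg and in 20.5%, 22.5% and 20.8% at 50 mg/kg (without thinning 1.65% and 42.3% on average). Ly6c2 was found in 21.2%, 21.8% and 21.1% and in 75.0%, 69.2% and 66.2%. Klrg1 rose from 2.62% to 18.0% and Ctla2a from 6.37% to 26.5% of thinned cells. The pools did not overlap in any of these genes, and each exact two-sided permutation p was 0.1, the smallest that 3 pools against 3 allow. The genes had been chosen from those whose levels did not overlap between the pools of the doses.

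Among the genes that fell, Ifitm1 was found in 26.9%, 23.7% and 27.8% of thinned cells at 5 mg/kg and in 1.35%, 2.23% and 2.32% at 50 mg/kg (without thinning 35.4% and 3.40% on average). Ifitm3 fell from 29.4% to 3.04%, Ccl1 from 6.05% to 0.135% and Sostdc1 from 7.85% to 0 cells. Free RNA can place a UMI in a cell that does not make the gene, and the naive-like C9 gave a measure of it: there Lmna was found in 0 of 96 thinned cells at 5 mg/kg and 4 of 83 (4.82%) at 50 mg/kg, Klrg1 in 1.04% and 1.20%, and Ifitm1 in 15.6% and 0. Ly6c2 was found in 26.0% of C9 cells at 5 mg/kg and 10.8% at 50 mg/kg, so that its share of 21.4% over all cells at 5 mg/kg did not exceed that of C9. Ly6c2 is also a gene of naive cells.

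**Figure D5:**
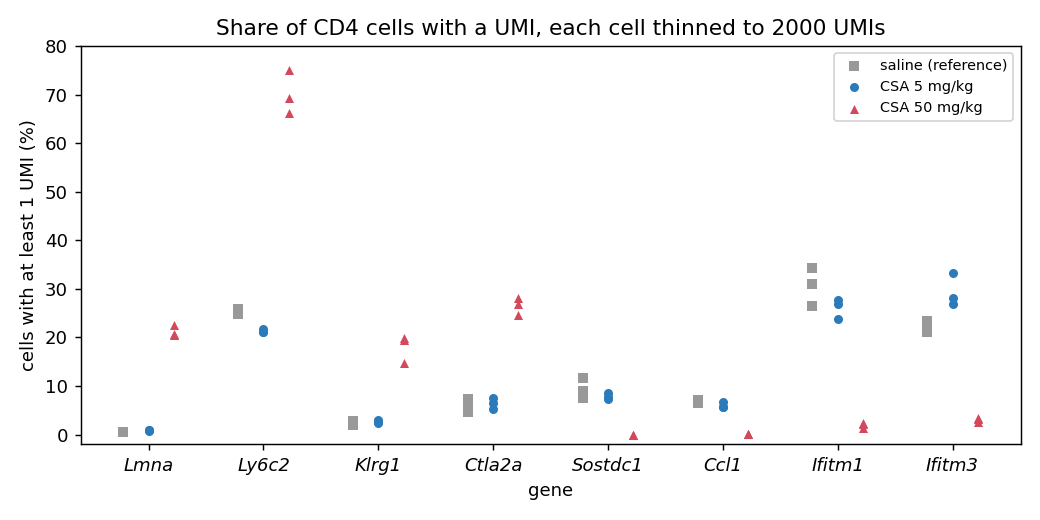
Share of CD4+ cells with at least 1 UMI of a gene after each cell was thinned to 2000 UMIs, 1 point per pool, for the 4 largest rises and 4 largest falls, with saline as a reference. Ly6c2 goes from 21.4% to 70.1% of cells on average and Ifitm1 from 26.1% to 1.97%.

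Per-cell scores deposited by the authors differed without overlap between the doses, each with an exact two-sided p of 0.1. The glycolysis score was 0.0403 ± 0.00203 at 5 mg/kg and 0.0510 ± 0.00149 at 50 mg/kg (mean of pool means ± SD, n = 3), and the exhaustion score 0.0870 ± 0.00100 and 0.0925 ± 0.000232. Among cells of at least 2000 UMIs the difference was smaller, 0.00651 in place of 0.0107 for the glycolysis score and 0.00303 in place of 0.00550 for the exhaustion score. The genes of the exhaustion score are not named in the sources used here. The stem-like score was 0.00217 ± 0.00742 and -0.0426 ± 0.0164. Clonality did not differ beyond the spread between pools: the Simpson index, the chance that a pair of cells share a T cell receptor, was 0.0590%, 0.0660% and 0.0313% at 5 mg/kg and 0.0657%, 0.0661% and 0.0268% at 50 mg/kg (exact two-sided p = 0.900). Cells in clonotypes of 2 or more cells made up 19.6%, 18.2% and 16.6% and then 28.1%, 26.3% and 17.5% of cells with a receptor, with overlap.

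Markers of other cells were low and some moved with the dose. Summed B cell markers took 0.0315% to 0.0449% of UMIs at 5 mg/kg and 0.0411% to 0.0446% at 50 mg/kg, with overlap, and myeloid markers 0.0181% to 0.0270% and 0.0127% to 0.0209%. Erythroid markers (such as hemoglobin genes and Alas2) took 5.37e-04% to 6.83e-04% and 0.00277% to 0.00370%, and natural killer cell markers 2.97e-04% to 5.12e-04% and 4.44e-05% to 1.32e-04%. Cd8a with Cd8b1, all of it Cd8b1, took 0.00863% to 0.00957% and 0.00208% to 0.00258%. The part of these cells and of depth in the differences described was not tested, other than by the thinned and within-cluster values above. The part of free RNA was not tested beyond the shares of cells in the naive-like cluster. All pools of a dose shared a capture, so its free RNA can reach the cells of every cluster. The same direction in all clusters therefore cannot decide the part of free RNA.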

How the data were processed

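Splenic donor T cells of BMT recipients treated with saline or with CSA (5 or 50 mg/kg) were sorted and run as 10x Chromium 5' libraries, 1 capture per treatment, with hashtag antibodies marking 3 pools of 2 mice. The submitters' processing notes name Cell Ranger, Seurat 3.0.0 and the mm10 build. The authors deposited UMI counts, neither scaled nor corrected, for 18029 genes in the cells they had kept. The authors also deposited clusters, clonotypes, TEa marks and pools, the fraction of mitochondrial UMIs per cell and module score values per cell, made by the authors from gene lists not named in the sources used here. The cell table marks no kept cell as a doublet or as dead, and no doublet caller was run. A second hashtag at 0.5 or more of the first was seen in 0, 41 and 94 cells of the 5 mg/kg pools and 0, 50 and 113 of the 50 mg/kg pools.

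Counts were summed per pool over CD4+ cells not marked TEa and fitted over the 6 CSA pools by the quasi-likelihood test of edgeR 4.0.16 under R 4.3.3, after filterByExpr and TMM scaling, with Benjamini-Hochberg adjustment over all genes and a threshold of 0.05. CPM over all CD4+ cells are TMM-scaled, other than those of Cd4, and saline CPM are on the same scale. CPM within a cluster are means over pools of a gene's plain share of the pool's UMIs in that cluster, without TMM scaling. The same test was used within clusters of at least 10 cells in every pool and, with the pool's cell number as the total, for cluster shares. Scores, clonality and shares of thinned cells were compared by the exact two-sided permutation test of pools. The fit was tested on simulated counts of 10375 genes: of 200 genes given a log2 change of 1 it recovered 90.5% and called 13 unchanged genes, and of 200 given 0.5 it recovered 60% and called 10. Changed genes went in either direction at random, and no capture effect was simulated. In the data 40.4% of genes were called, so these rates need not hold there.

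The 24 named genes were the 12 largest rises and 12 largest falls by log2 difference of called genes whose 6 pools averaged 50 CPM or more and did not overlap between doses, without receptor and immunoglobulin segments. Members of the gene lists with the largest differences or by which a list is known were named beside them, and genes of the closing section whose change differed between clusters, or that were at 0 at 1 dose, were chosen after their values were seen. The members, gene lists and tests were chosen with earlier results of these data known. Lists were described by counts and medians, with no set test. Promoters came from a RefSeq table (GRCm38.p6). The values of some genes are not reported here.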

Additional observations from a re-analysis of the deposited data

Results flagged for a closer look

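The genes here passed the test in opposite directions within 2 of the clusters C0 to C3, and the difference of the dose effect between those clusters passed its own test (edgeR's quasi-likelihood test of the interaction, adjusted over all genes of a pair of clusters). These tests were added after seeing the data. Between the pairs of these clusters 2.97% (C1 and C3) to 9.35% (C0 and C3) of genes passed it.

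Gzmb, the protease granzyme B, rose over all CD4+ cells. It rose within C0 by 0.89 and within C3 by 0.94 on the log2 scale and fell within C2 by 1.30, and the change in C3 exceeded that in C2 by 2.20 (adjusted p = 6.57e-19). The fall was not particular to C2. In mean CPM Gzmb was also lower at the high dose in C1 (520 to 379), C4 (657 to 231), C11 and C12. It was higher in C5 (1021 to 1309), C6, C7 (396 to 1764), C8 and C10. In the naive-like C9, a cell type not known for granzymes, Gzmb went from 396 CPM at the low dose to 67.3 CPM at the high dose, Gzma from 323 to 8.63 CPM, and Nkg7, a granule membrane protein, from 343 to 117 CPM. The part of free RNA in the fall within C2 was not tested.

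Ccl4, a chemokine of activated T cells, rose by 0.75 within C0 and fell by 2.12 within C1 and by 0.78 within C3. The change in C1 less that in C0 was -2.93 (adjusted p = 2.02e-08). Over all cells Ccl4 did not pass.

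Further genes differed between C0 and C2, where 5.32% of genes passed the interaction test. Ahnak, a large scaffold protein, fell by 0.70 in C0 and rose by 1.00 in C2 (difference 1.69, adjusted p = 1.39e-15). Cd96, an adhesion receptor, fell by 0.67 in C0 and rose by 1.16 in C2 (difference 1.86, adjusted p = 1.49e-09), and Cd7 fell by 0.60 and rose by 0.53 (difference 1.17, adjusted p = 3.87e-04). Sh2d1a, the SLAM adaptor SAP, rose by 0.56 in C0 and fell by 0.97 in C2 (difference -1.52, adjusted p = 2.47e-10), and Irgm1, an interferon-induced GTPase, rose by 0.61 and fell by 0.65 (difference -1.26, adjusted p = 6.16e-04). Between C1 and C2, Ifi27l2a, an interferon-stimulated gene, rose by 0.65 in C1 and fell by 0.66 in C2 (difference -1.31, adjusted p = 2.91e-23). The median C0 cell held 2328 UMIs at 5 mg/kg and 5454.5 at 50 mg/kg, so its cells differed in depth between the doses more than those of C1 (4486 and 4916) and C2 (4602 and 5066). The part of depth in these differences was not tested.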

How the results depend on the processing

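All 24 named genes kept direction and significance under each of the 16 alternatives. The 4190 calls became 2723 with DESeq2 (1377 higher, 1346 lower) and 2543 with cells thinned to 2000 UMIs (1239 higher, 1304 lower), 4464 with no filter on low counts, 3510 outside the cycling clusters and 3520 to 3845 with 1 pool left out. Chosen after seeing the data, leaving out cells with a second hashtag gave 3983. The pool number as a replicate block gave 4120 calls. Same-numbered pools did not deviate together (correlations -0.021, -0.011 and -0.065 over 7443 genes) and share only the pool number, since each pool had its own hashtag. With the saline pools in the same fit 4353 genes were called.

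Within clusters DESeq2 called 769 genes in C0, 541 in C1, 497 in C2, 511 in C3, 120 in C4, 238 in C5, 234 in C7, 150 in C8, 51 in C9 and 121 in C10, against 1789, 1142, 1078, 925, 284, 527, 422, 386, 100 and 256 with edgeR. With 1 pool left out the calls were 161 to 316 in C4, 301 to 438 in C5 and 244 to 431 in C8.

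The balance of members higher minus lower changed sign with library size scaling for the calcineurin and NFAT list (-1) and S phase (-5). Outside the cycling clusters it did so for S phase (-37), G2 and M phase (-45) and the nuclear lamina (-1), and with thinned cells for AP-1 (-1), S phase (-4) and G2 and M phase (-2). With 1 pool left out it ranged from -1 to 1 for AP-1 and from -3 to 1 for the unfolded protein response. Median log2 differences changed sign outside the cycling clusters for chemokines (0.053), the nuclear lamina (-0.0094) and G2 and M phase (-1.31), with thinned cells for the nuclear lamina (-0.042) and G2 and M phase (-0.12), and with 1 pool left out for chemokines (-0.68 to 0.066).

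Among cells of at least 2000 UMIs the share of C0 changed by 0.35 and that of C4 by -0.72 on the log2 scale. Against the total outside the cycling clusters C7, C8 and C10 changed by 0.011, 0.021 and 0.15. With 1 pool left out the change was -0.59 to 0.20 for C8, -0.60 to 0.014 for C9, -0.22 to 0.13 for C10 and -0.81 to 0.059 for C12, none of which passed with all pools. Among cells of at least 2000 UMIs the dose difference was 0.00651 in the glycolysis score, 0.00303 in the exhaustion score, -0.150 percentage points in the mitochondrial share (-0.518 with all cells) and 1251 in median UMIs. As medians over cells the stem-like score differed by -0.0662 and the mitochondrial share by 0.0251 percentage points. The cause of these shifts was not tested.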

Other observations

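A few genes were at 0 UMIs in all 3 pools of 1 dose. Beside Sostdc1, Gcg, the glucagon gene, had 256 UMIs at 5 mg/kg and none at 50 mg/kg, at least 113-fold lower with a floor of 3 UMIs over the group. Dpysl3, a cytoskeletal protein known from neurons, had 53 and none. In the other direction Klk1b11, a kallikrein, had none at 5 mg/kg and 115 UMIs at 50 mg/kg, and the immunoglobulin light chain segment Iglv1 had none and 3467 UMIs, at least 872-fold higher.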
